A study of Mus musculus with 12 samples.

Results

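The genes described here are 6 mouse gasdermin genes: the neighbouring paralogs Gsdmc, Gsdmc2, Gsdmc3 and Gsdmc4, and the single-copy genes Gsdmd and Gsdme. They were taken by gene symbol, and all 6 were found among the 45777 genes of the deposited kidney table. The set was chosen by measured values of these data: Gsdmc2 counts had been seen to be high in PBS against normal. For the gasdermin genes that contrast is therefore described here without a test, while other genes named below were tested in it. Bulk kidney RNA was measured in 12 libraries from male wild-type C57BL/6 mice, with 4 groups of 3. The normal group was given no cisplatin and no vesicles. The other groups had cisplatin, a platinum chemotherapy toxic to renal tubules, injected intraperitoneally at 9 mg/kg in 5 weekly cycles. The PBS group was then given 5 intravenous injections of phosphate-buffered saline, 3 days apart. The EV200 and EV400 groups were given 200 or 400 µg of extracellular vesicles per injection on the same schedule, from cells that the labels call iMSC. These kidneys were taken 3 days after the last injection. Since no intravenous injection is listed for normal mice, cisplatin and the injections cannot be told apart in a contrast with normal. Age is not given. Libraries are called biological replicates without a statement that each is a separate mouse, so p-values cover only the spread between these samples, which may be technical.

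Gasdermins are cytosolic proteins held inactive by their carboxy-terminal domain. When a protease cuts the linker, the amino-terminal domain inserts into membranes and forms pores, which release inflammatory cytokines and can end in a lytic cell death called pyroptosis. Gasdermin D is cut by caspase-1 and, in mice, caspase-11. Cleavage of gasdermin C by caspase-8 is known from human cells. The mouse gasdermin C genes are best known from the intestinal epithelium, where type 2 cytokines raise their transcripts through the factor STAT6. The table counts transcripts and holds no measure of cleavage.

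Gsdmc (63775971 to 63808739), Gsdmc2 (63824328 to 63845193), Gsdmc3 (63857605 to 63878579) and Gsdmc4 (63891140 to 63912319) lie one after another on the minus strand of chromosome 15 within 136349 bases (RefSeq, GRCm38.p6). Gsdmd lies on the plus strand of the same chromosome, from 75862144 to 75867408, and Gsdme on the minus strand of chromosome 6, from 50207401 to 50263857. In the RefSeq table no other gene overlaps any of the 6. The start of the coding sequence shows how alike the paralogs are, which limits how reads can be assigned to them. The lines below give coding bases 1 to 101 of each, as long as 1 sequencing read, from GENCODE vM21 (GRCm38). Capitals mark bases that differ from Gsdmc2 at the same position.
Gsdmc2: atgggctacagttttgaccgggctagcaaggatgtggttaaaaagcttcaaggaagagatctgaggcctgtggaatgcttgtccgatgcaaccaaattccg
Gsdmc3: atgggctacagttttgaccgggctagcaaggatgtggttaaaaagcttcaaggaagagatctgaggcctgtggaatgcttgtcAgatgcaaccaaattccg
Gsdmc4: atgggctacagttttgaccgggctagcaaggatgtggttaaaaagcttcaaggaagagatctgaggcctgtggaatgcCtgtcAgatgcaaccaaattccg
Gsdmc: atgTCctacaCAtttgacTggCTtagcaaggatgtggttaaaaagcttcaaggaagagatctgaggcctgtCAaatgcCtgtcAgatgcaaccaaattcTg
In this stretch Gsdmc3 differed from Gsdmc2 at 1 base, Gsdmc4 at 2 bases and Gsdmc at 12 bases.

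Over the whole coding sequence, Gsdmc2 and Gsdmc3 had the same base at 97.1% of aligned positions, and Gsdmc4 matched either at 93.8%. Gsdmc was the most distant of the cluster, at 87.0 to 87.5%. Gsdmd and Gsdme were far from the cluster, at 58.2 to 62.2%, and shared no 101-base window with it. Of the 101-base windows of the Gsdmc2 coding sequence, 72.2% occurred in no other gene of the cluster, and the same held for 69.1% of Gsdmc3 windows, 72.7% of Gsdmc4 windows and 89.8% of Gsdmc windows. Most reads can therefore be told apart in principle. How the authors' counting treated reads that fit several genes is not given in the sources used here, so values of single paralogs are uncertain, and the sum of the 4 counts leads below.

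Library totals ranged from 46598091 to 62090819 counts. Levels of 1 gene across libraries are given as CPM, the usual depth-scaled count, here with library sizes adjusted by TMM, and levels of different genes are compared only as the authors' TPM, which is corrected for length. Proximal tubule markers summed to 8162 to 15303 CPM in the 12 libraries, and all 6 genes had counts in every library, as is usual for kidney. Library PBS 3 stood apart with 112.1 CPM of summed adipose markers against 22.9 to 34.4 CPM in the 11 others. PBS 2 lay at 83.4 on the first principal component against 15.4 and 42.8 for the other PBS libraries. On it EV200 3 lay at 60.5 against -18.7 and -8.6 for the other EV200 libraries. EV400 3 lay at -52.1 against 1.1 and 7.9 for the other EV400 libraries. Values without these libraries are given where they move a result most.

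**Figure D1:**
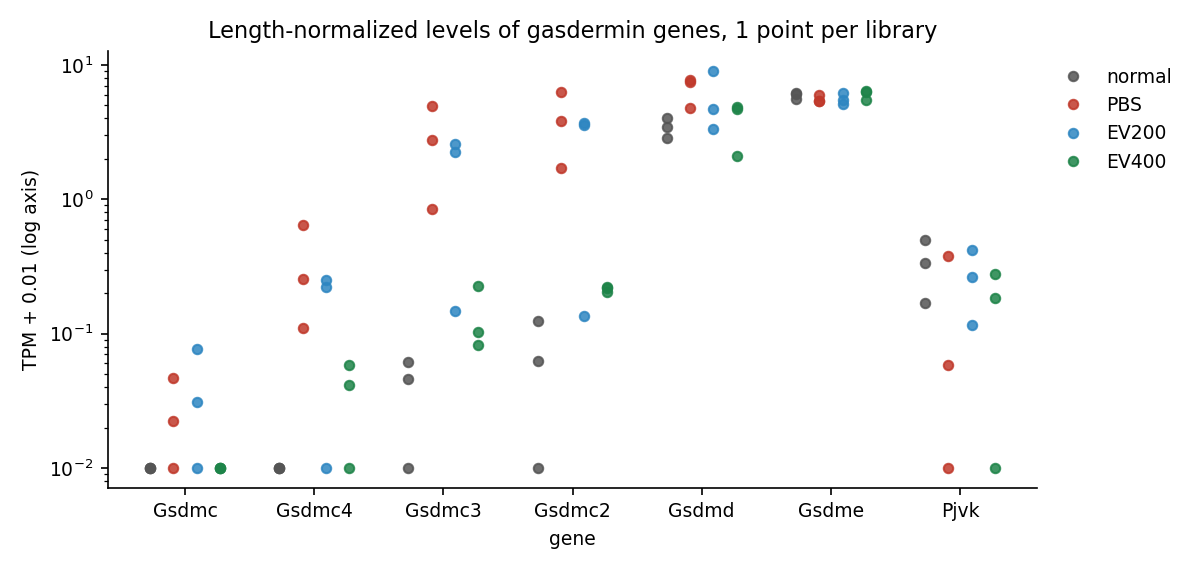
TPM of each gasdermin gene plus 0.01 on a log axis, with 1 point per library coloured by group. Gsdmd and Gsdme stay between 2.101 and 9.06 TPM in every group, while Gsdmc2 and Gsdmc3 run from 0 TPM in a normal library to 6.32 and 4.90 TPM in PBS 2.

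In normal kidney the order of levels per length was clear. Gsdme averaged 5.95 ± 0.307 TPM and Gsdmd 3.44 ± 0.610 TPM (SD, n = 3). Gsdmc2 averaged 0.0554 ± 0.0568 TPM and Gsdmc3 0.0291 ± 0.0265 TPM, which do not differ beyond their spread, and Gsdmc and Gsdmc4 had no count in any normal library. In the PBS group the order was Gsdmd (6.61 ± 1.62 TPM), Gsdme (5.54 ± 0.346 TPM), Gsdmc2 (3.93 ± 2.31 TPM) and Gsdmc3 (2.83 ± 2.03 TPM). The PBS values of each neighbouring pair in that order overlapped, while every Gsdmc3 value lay below every Gsdme value. Gsdmc4 averaged 0.326 ± 0.277 TPM and Gsdmc 0.0164 ± 0.0188 TPM there. The cluster was thus far below Gsdmd and Gsdme in normal kidney and much nearer to them in the PBS group. Other gasdermin genes were scarce: Gsdma, best known from skin, had 6 counts in all 12 libraries, Gsdma2 and Gsdma3 had 0 counts, and Pjvk, a hearing-related relative, reached at most 0.491 TPM. The Gsdmc-like pseudogenes Gsdmcl1, Gsdmcl2 and Gsdmcl-ps had 0 counts in every library. A count of 0 allows up to 3 counts, or 0.0433 to 0.0695 CPM per library, for counting error only.

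Most counts of the cluster came from Gsdmc2 and Gsdmc3. Of 3048 counts over the 12 libraries, Gsdmc2 held 55.6%, Gsdmc3 40.3%, Gsdmc4 3.77% and Gsdmc 0.361%. In the 5 libraries with 187 or more summed counts, the share of Gsdmc2 was 59.4% in PBS 1, with an exact 95% binomial interval of 51.9 to 66.5%. It was 54.2% in PBS 2 (51.2 to 57.1%), 55.6% in PBS 3 (51.3 to 59.8%), 54.0% in EV200 2 (49.6 to 58.4%) and 57.7% in EV200 3 (53.4 to 61.9%). These intervals overlap, and they cover counting error only. In the other libraries with counts, 11 to 44 counts left intervals too wide to compare.

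**Figure D2:**
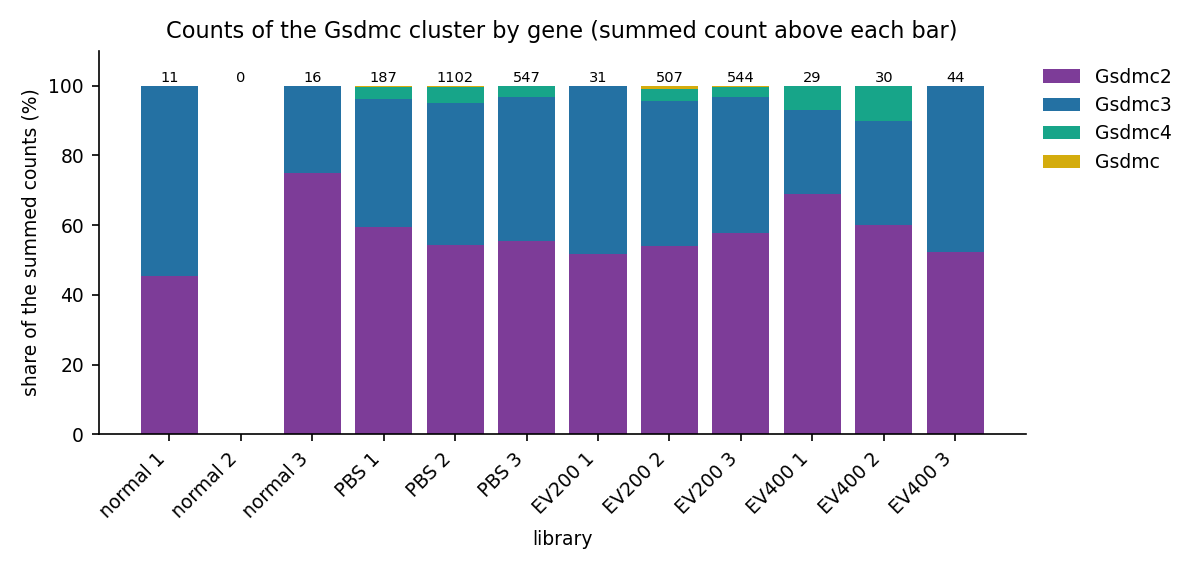
Share of the summed Gsdmc, Gsdmc2, Gsdmc3 and Gsdmc4 counts held by each gene in each library, in percent, with the summed count printed above each bar. Gsdmc2 and Gsdmc3 fill nearly the whole bar wherever counts are plentiful, and normal 2 has no count and no bar.

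The summed cluster had 11, 0 and 16 counts in normal 1, 2 and 3, and 187, 1102 and 547 counts in PBS 1, 2 and 3. EV200 1, 2 and 3 held 31, 507 and 544 counts, and EV400 1, 2 and 3 held 29, 30 and 44 counts. Every PBS library was above every normal library, EV200 was split between 1 low and 2 high libraries, and all EV400 libraries were low. In bulk kidney, fewer cells of a type and less RNA per cell cannot be told apart.

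On the CPM scale the cluster averaged 0.184 ± 0.169 in normal, 9.65 ± 6.03 in PBS, 6.43 ± 5.13 in EV200 and 0.749 ± 0.235 in EV400 (SD, n = 3). PBS against normal, the contrast known when the genes were chosen, had a log2 fold change of 5.70 for the sum, 5.50 for Gsdmc2 and 5.80 for Gsdmc3. Against 0 counts of Gsdmc4 over the normal group, taken as 3 counts over the group, the pooled Gsdmc4 level in PBS was at least 21.0-fold higher. Every PBS library was above every normal library for Gsdmc2, Gsdmc3, Gsdmc4 and Gsdmd, 4 of the 6 genes, as was so for 20.3% of the 18730 genes tested, and every PBS library was below every normal library for Gsdme, as for 20% of genes. EdgeR called 2.74% of all genes in this contrast, DESeq2 14.9% and limma-voom 32.9%. Nothing is read from these shares, since this contrast was known beforehand.

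**Figure D3:**
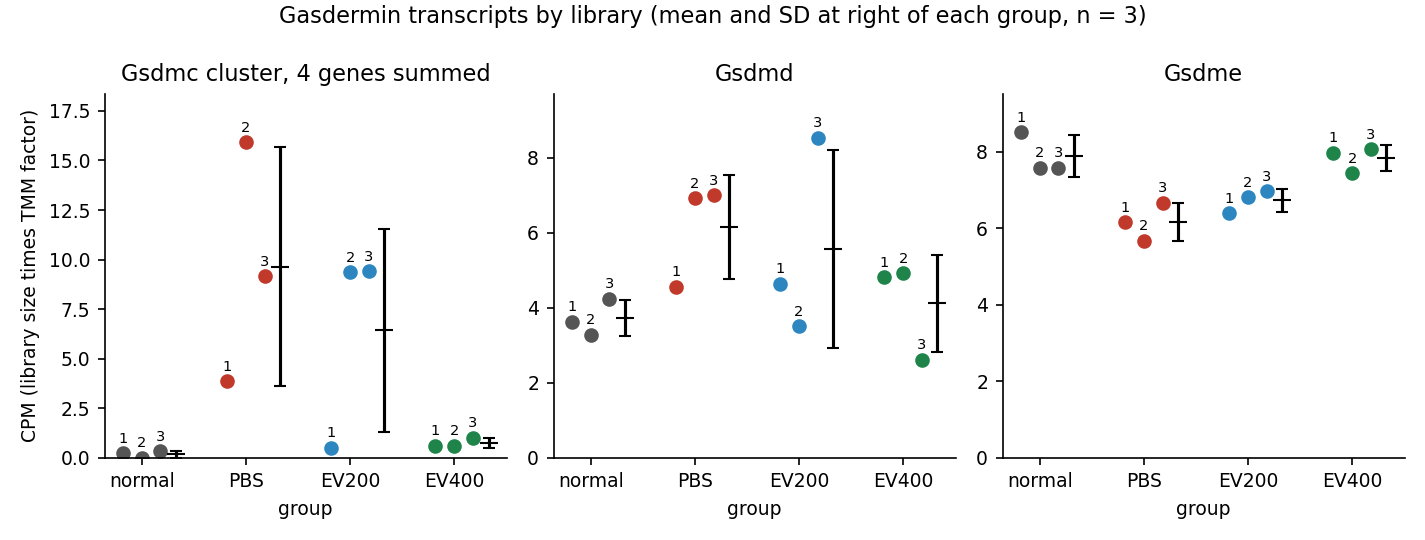
CPM of the summed Gsdmc cluster, of Gsdmd and of Gsdme in each library, numbered by replicate, with the group mean and SD at the right of each group. The cluster is near 0 in normal and EV400 libraries and in EV200 1, while Gsdmd and Gsdme vary within a few CPM.

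The comparison of EV400 with PBS asks whether the higher vesicle dose went with other gasdermin levels in cisplatin-treated kidney. Each EV400 library had less of the cluster than each PBS library, 0.605 to 1.02 against 3.87 to 15.9 CPM, and the PBS mean was 12.9 times the EV400 mean. The log2 fold change was -3.69 (SE 0.92), with a 95% interval of -5.71 to -1.68. The quasi-likelihood test of edgeR gave an unadjusted p of 0.00178 and a Benjamini-Hochberg adjusted p of 0.127, so the difference missed the threshold of 0.05. DESeq2 called it, with a log2 fold change of -3.70 and an adjusted p of 0.0313 after Benjamini-Hochberg adjustment. Limma-voom did not, at -3.71 and an adjusted p of 0.0651. Without PBS 3 and EV400 3 the log2 fold change was -4.00 (edgeR, Benjamini-Hochberg adjusted p 0.362).

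Taken singly, Gsdmc2 had a log2 fold change of -3.60, Gsdmc3 -3.85 and Gsdmc4 -3.40 in EV400 against PBS, with the libraries of both groups apart for each. For Gsdmc4 this rests on few counts, 2, 3 and 0 in EV400 1, 2 and 3. PBS 1, 2 and 3 had 6, 52 and 18 counts of Gsdmc4, which was kept for testing only through PBS and EV200 libraries. Gsdmc was too scarce to be tested. Of the 5 genes tested, edgeR called 0, with 4 at an unadjusted p under 0.05. These were the 3 paralogs, which share reads and are not independent, and Gsdme. DESeq2 called Gsdmc2 and Gsdmc3 among 4 genes with an adjusted p, and limma-voom called Gsdme. Over all genes edgeR called 0.0801%, DESeq2 5.8% and limma-voom 14.6% in this contrast, and 23.5% had an unadjusted p under 0.05 by edgeR. All EV400 libraries lay below all PBS libraries for 13.8% of the genes tested. The PBS libraries of this contrast are the ones whose high Gsdmc2 level was known beforehand, and they also serve in the contrast with EV200. The p-values of the cluster against PBS are therefore not independent of how the genes were chosen.

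In the comparison of EV200 with PBS, which asks the same of the lower dose, the libraries overlapped. EV200 2 and EV200 3 had 9.36 and 9.41 CPM of the cluster, beside 9.16 CPM in PBS 3 and above the 3.87 CPM of PBS 1. EV200 1 had 0.509 CPM, below every PBS library. The log2 fold change was -0.59 (SE 0.79), with a 95% interval of -2.32 to 1.13 and an edgeR adjusted p of 0.792 (Benjamini-Hochberg). The interval is too wide to show that the groups were alike. Without EV200 1 the log2 fold change was -0.04, and without PBS 2 it was -0.02. It was -0.96 without EV200 2, -0.98 without EV200 3 and -0.97 without PBS 1, so its size rested on single libraries of both groups. Neither edgeR nor DESeq2 called any of the 5 genes, 0 had an unadjusted p under 0.05 by edgeR, where 6.9% of all genes did, and limma-voom called Gsdmd. Over all genes edgeR called 0.016%, DESeq2 0.194% and limma-voom 8.8%. No gasdermin gene had the EV200 and PBS libraries apart, while 5.53% of all genes had every EV200 library higher and 4.94% every one lower.

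EV400 against EV200, the contrast between the doses, gave the cluster a log2 fold change of -3.10 (SE 0.91) with a 95% interval of -5.09 to -1.12. The libraries overlapped, because EV200 1 lay below every EV400 library. By edgeR the unadjusted p was 0.00525 and the Benjamini-Hochberg adjusted p 0.769. Gsdmc2 and Gsdmc3 had an unadjusted p under 0.05, as had 6.34% of all genes. None of the 5 genes was called by any tool, while over all genes edgeR called 0.00534%, DESeq2 0.0628% and limma-voom 0.774%. The libraries of both doses were apart for Gsdme, with EV400 higher, as was so for 5.1% of all genes, and 5.57% had every EV400 library lower.

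Against normal, the cluster in EV200 had a log2 fold change of 5.11 (SE 1.07), a 95% interval of 2.78 to 7.44 and an adjusted p of 0.0879 in edgeR (Benjamini-Hochberg). Each EV200 library was above each normal library, EV200 1 by the smallest margin, at 0.509 against 0.332 CPM in normal 3. Such a separation was seen for 11.9% of all genes. DESeq2 called this difference at 5.14 (adjusted p 0.00151), while limma-voom gave an adjusted p of 0.164. Leaving out EV200 1 gave an edgeR adjusted p (Benjamini-Hochberg) of 0.0291, and leaving out EV200 3 gave 0.247, at a log2 fold change of 4.72. DESeq2 called 3 of the single genes here, Gsdmc2, Gsdmc3 and Gsdmc4, where edgeR called 0 with 3 at an unadjusted p under 0.05 and limma-voom 0. An unadjusted p under 0.05 was found for 13.2% of all genes. The share of all genes called was 0.0694% by edgeR, 2.66% by DESeq2 and 5.86% by limma-voom. The normal libraries are the ones whose low Gsdmc2 level was known beforehand, and they also serve in the contrast with EV400. The p-values of the cluster against normal are therefore not independent of how the genes were chosen.

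EV400 libraries had slightly more of the cluster than normal libraries, 0.605 to 1.02 against 0 to 0.332 CPM, with no overlap. The log2 fold change was 2.01 (SE 1.14), the 95% interval ran from -0.47 to 4.49, and the Benjamini-Hochberg adjusted p by edgeR was 0.751. In this contrast 8.28% of all genes had every EV400 library above every normal library. Of all genes edgeR called 0%, and 6.98% had an unadjusted p under 0.05. The shares called were 7.91% by limma-voom and 0.13% by DESeq2. None of the 5 tested gasdermin genes was called by any of these tools or had an unadjusted p under 0.05.

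**Figure D4:**
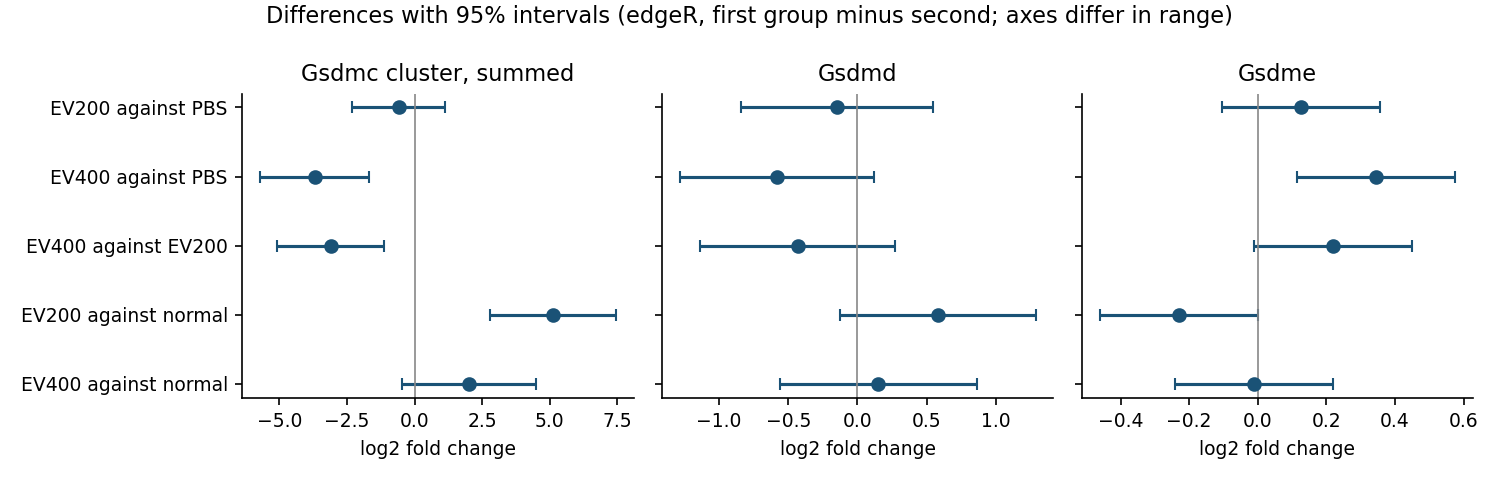
Log2 fold changes of the summed Gsdmc cluster, of Gsdmd and of Gsdme in 5 contrasts, first group minus second, with 95% intervals from edgeR. The interval of the cluster lies below 0 in EV400 against PBS and EV400 against EV200 and above 0 in EV200 against normal, although none of these passed edgeR's adjustment over all genes, and the horizontal ranges differ between panels.

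Gsdmd, the pore protein acting downstream of inflammasomes, ranged from 2.62 to 8.53 CPM over the 12 libraries. Its level was 3.63, 3.28 and 4.23 CPM in normal 1, 2 and 3, and 4.56, 6.92 and 6.999 CPM in PBS 1, 2 and 3. It was 4.64, 3.51 and 8.53 CPM in EV200 1, 2 and 3, and 4.82, 4.91 and 2.62 CPM in EV400 1, 2 and 3. EV200 3 was the highest and EV400 3 the lowest of the 12, so both vesicle groups spanned much of the whole range and overlapped with PBS and normal. Without EV400 3 the log2 fold change of EV400 against PBS was -0.33, against -0.58 (SE 0.32) with all libraries, where the 95% interval was -1.28 to 0.12 and the Benjamini-Hochberg adjusted p 0.276 by edgeR.

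For EV200 against PBS, Gsdmd had a log2 fold change of -0.15 (SE 0.32), with an interval of -0.84 to 0.55 and an edgeR adjusted p of 0.876 (Benjamini-Hochberg). Without EV200 2 it was 0.10, and without EV200 3 it was -0.60 (edgeR, Benjamini-Hochberg adjusted p 0.293). Limma-voom, which gave EV200 2 a weight of 2.97 and EV200 3 a weight of 0.283, called it lower at -0.74 with an adjusted p of 0.0435. The doses differed by -0.43 (SE 0.32), EV400 minus EV200, and without EV200 3 by 0.02. Against normal, Gsdmd had 0.58 (SE 0.32) in EV200 and 0.15 (SE 0.33) in EV400, with adjusted p of 0.473 and 0.946 by edgeR. Without EV200 3 the first was 0.14, and without EV400 3 the second was 0.41. The description of PBS against normal gave 0.73, with no overlap between the libraries.

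Gsdme, the gasdermin E gene, was the steadiest of the 3. Its level was 8.51, 7.57 and 7.58 CPM in normal 1, 2 and 3, and 6.15, 5.67 and 6.66 CPM in PBS 1, 2 and 3. It was 6.38, 6.81 and 6.97 CPM in EV200 1, 2 and 3, and 7.97, 7.44 and 8.07 CPM in EV400 1, 2 and 3. EV400 libraries lay above all PBS and all EV200 libraries and overlapped with normal, while all PBS and EV200 libraries lay below all normal ones. EV400 against PBS had a log2 fold change of 0.34 (SE 0.11), an interval of 0.11 to 0.58 and an edgeR adjusted p of 0.149 (Benjamini-Hochberg). Limma-voom called it at 0.27 (adjusted p 0.0424). All libraries of EV400 lay above those of PBS for 12.2% of all genes, and all libraries of EV200 lay below those of normal for 12.9%.

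On the authors' TPM scale this separation was not seen. Gsdme had 5.47 to 6.39 TPM in EV400, 5.34 to 5.94 TPM in PBS, 5.15 to 6.17 TPM in EV200 and 5.61 to 6.19 TPM in normal, and all these ranges overlap. In the other contrasts Gsdme had log2 fold changes of 0.13 (EV200 against PBS), 0.22 (EV400 against EV200), -0.23 (EV200 against normal) and -0.01 (EV400 against normal), none called by edgeR. Its direction in EV400 against normal changed with the scaling factors and is not stated. The 95% interval there, -0.24 to 0.22, leaves room for a small change either way.

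The caspase genes described here differed in how steady they were. Caspase-8 (Casp8) stayed between 27.2 and 33.2 CPM over the 12 libraries. Casp1 had 1.62, 3.86 and 2.11 CPM in PBS 1, 2 and 3, and 1.08, 1.49 and 1.07 CPM in EV400 1, 2 and 3. Each EV400 library was below each PBS library, with a log2 fold change of -1.06 (SE 0.37) and an edgeR adjusted p of 0.165 (Benjamini-Hochberg). Limma-voom called it and DESeq2 did not. Casp4, which encodes mouse caspase-11, averaged 3.42 ± 2.11 CPM in PBS, 2.46 ± 2.19 CPM in EV200, 2.02 ± 0.743 CPM in EV400 and 1.04 ± 0.218 CPM in normal (SD, n = 3), with overlap between PBS and both doses.

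A list of 31 pyroptosis genes, covering inflammasome sensors, caspases, cytokines and granule proteases, had 28 members tested. None was called by edgeR in any of the 6 contrasts. In EV400 against PBS, the unadjusted p was under 0.05 for 4, limma-voom called 5 and DESeq2 0, where the shares over all genes were 23.5%, 14.6% and 5.8%. The list's median log2 fold change was -0.19 against -0.02 over all genes. In EV200 against PBS, the unadjusted p was under 0.05 for 1, limma-voom called 3 and DESeq2 0, beside 6.9%, 8.8% and 0.194% of all genes, with a median of -0.11 against -0.00246. In PBS against normal, 13 had an unadjusted p under 0.05, as had 29.8% of all genes. Limma-voom called 9 higher and 1 lower there, beside 32.9% of all genes, DESeq2 6 higher, beside 14.9%, and the median was 0.17. In EV400 against EV200, EV200 against normal and EV400 against normal, the unadjusted p was under 0.05 for 0, 3 and 1. The shares of all genes were 6.34%, 13.2% and 6.98%. Limma-voom called 0, 1 and 2 there, beside 0.774%, 5.86% and 7.91% of all genes. DESeq2 called 0 in each, beside 0.0628%, 2.66% and 0.13%.

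The members of that list with the smallest p against PBS were inflammasome genes. Naip2, a sensor of bacterial secretion proteins, had 5.51, 7.88 and 5.84 CPM in PBS 1, 2 and 3, and 3.41, 3.56 and 5.09 CPM in EV200 1, 2 and 3. Its libraries did not overlap, with a log2 fold change of -0.67 (SE 0.18) and an edgeR adjusted p of 0.657 (Benjamini-Hochberg). Aim2, the cytosolic DNA sensor, had 1.93 to 4.84 CPM in PBS and 0.811 to 1.72 CPM in EV400, at -1.33 (SE 0.45) and an adjusted p of 0.158 by edgeR. Il1b, the interleukin-1 beta gene whose product leaves cells through gasdermin D pores, had 1.36 to 1.76 CPM in PBS and 0.603 to 1.25 CPM in EV400, at -0.84 (SE 0.35) and an adjusted p of 0.192 by edgeR. The neutrophil protease genes Elane and Ctsg had 0 counts in every library.

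A list of 31 genes of type 2 immunity, the setting in which the gut induces the cluster, had 17 members tested. Il9, Il13, Il25, Il13ra2 and Retnlb had 0 counts in all 12 libraries, while Il4 had 7 and Il5 had 5 counts in all. A total of 0 counts allows the upper limit given above for each library. Receptors and the signal carrier were expressed: Il4ra averaged 17.4 ± 0.669 CPM in normal, 19.3 ± 0.265 CPM in PBS, 19.0 ± 2.47 CPM in EV200 and 18.3 ± 1.24 CPM in EV400 (SD, n = 3). Stat6 had log2 fold changes of 0.03 (EV200) and -0.04 (EV400) against PBS, neither called.

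In PBS against normal edgeR called 2 members of that list, both higher. Gata3, which in kidney marks collecting duct and other epithelia beside type 2 lymphocytes, rose by 0.62 on the log2 scale (adjusted p 0.043, edgeR with Benjamini-Hochberg adjustment). Dclk1, known from tuft cells and also expressed elsewhere, rose by 4.19 (adjusted p 0.0474). DESeq2 and limma-voom each called 9 higher, where the shares of all genes called were 2.74% by edgeR, 14.9% by DESeq2 and 32.9% by limma-voom. In the doses against PBS edgeR called 0, while the unadjusted p was under 0.05 for 0 (EV200) and 4 (EV400) of the 17, beside 6.9% and 23.5% of all genes. Limma-voom called 5 and 4 there, all lower, beside 8.8% and 14.6% of all genes, and DESeq2 0 in both. By edgeR, the 4 with an unadjusted p under 0.05 in EV400 included Dclk1 at -2.19 and Mrc1, a macrophage mannose receptor gene, at -1.69. The others were Gata3 at -0.32 and Tyk2, a cytokine receptor kinase gene, at -0.20. Of these genes limma-voom called Dclk1 and Tyk2. The list's median was -0.16 in EV200 and -0.50 in EV400 against PBS. Between the doses and against normal edgeR called 0 as well. Before adjustment 1 was under 0.05 in EV400 against EV200, beside 6.34% of all genes. In EV200 against normal 9 were, beside 13.2%, and in EV400 against normal 4, beside 6.98%. In EV200 against normal limma-voom called 1 and DESeq2 5, all higher, beside 5.86% and 2.66% of all genes. In EV400 against EV200 both called 0, beside 0.774% and 0.0628%, as in EV400 against normal, beside 7.91% and 0.13%.

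The marker sums of urothelium, injured tubule and macrophages were also higher in every PBS library than in every normal library. The 12 urothelium markers, the uroplakins, Psca and basal keratins among them, summed to 6.36 to 11.1 CPM in normal, 24.8 to 54.7 CPM in PBS, 10.9 to 56.6 CPM in EV200 and 9.39 to 19.8 CPM in EV400. None of the 12 was at 0 throughout a group. The 12 injured tubule markers, such as Havcr1, Lcn2 and Krt20, summed to 647 to 761, 1387 to 1995, 1061 to 2240 and 807 to 1156 CPM in the same order of groups. The 8 macrophage markers summed to 116.3 to 132.8, 282 to 549, 163.4 to 487 and 109.6 to 239 CPM. Such sums weigh abundant genes most. Among injured tubule markers Spp1 reached 1326 CPM and Clu 326 CPM, while Havcr1 reached 26.0 CPM, Lcn2 24.2 CPM and Krt20 2.94 CPM. Of the intestinal markers Cdx1, Cdx2, Fabp2 and Sis had no count in any group, while that list as a whole, which holds genes kidney also expresses, summed to 187.5 to 309.2 CPM. Of the squamous epithelium markers Krt6a, Krt13 and Dsg3 had none, and the list summed to 6.77 to 10.9 CPM. Within that list Krt10 reached 8.02 CPM, Sprr1a 4.59 CPM and Krt14 1.19 CPM. The part of these cells in the gasdermin results was not tested.

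Within EV200 the sums did not rise in step with the cluster, although the urothelium and macrophage sums were also lowest in EV200 1. EV200 2 had 18.4 times the cluster level of EV200 1, at 9.36 and 0.509 CPM. Their injured tubule sums were nearly the same, at 1061 and 1099 CPM, and so were their macrophage sums, at 183.6 and 163.4 CPM. Their urothelium sums were 31.3 and 10.9 CPM, a ratio of 2.86. EV200 3 had about the cluster level of EV200 2, at 9.41 CPM, with higher sums of 2240 CPM for injured tubule, 487 CPM for macrophages and 56.6 CPM for urothelium. EV400 1 and EV400 2, with 0.605 and 0.622 CPM of the cluster, had injured tubule sums of 1059 and 1156 CPM. EV400 1 also had a urothelium sum of 19.8 CPM, close to the 24.8 CPM of PBS 1, where the cluster stood at 3.87 CPM. From PBS 1 to PBS 2 the cluster rose 4.11-fold, the urothelium sum 2.20-fold and the injured tubule sum 1.44-fold.

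**Figure D5:**
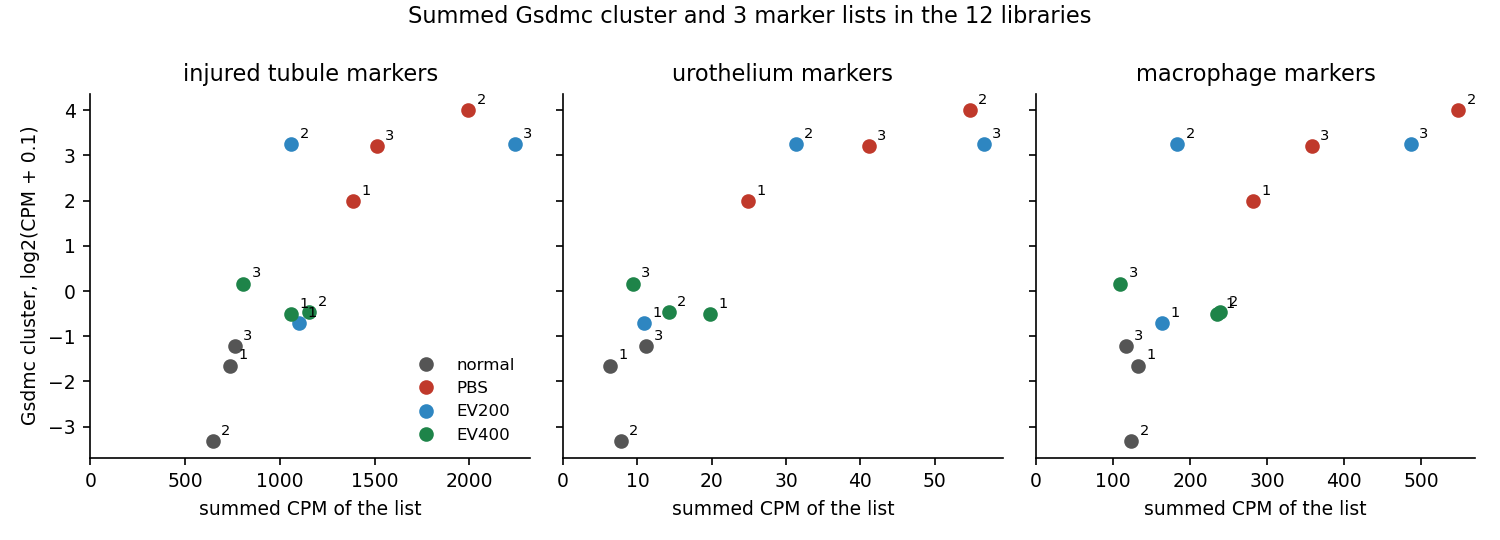
Summed Gsdmc cluster as log2(CPM + 0.1) against the summed CPM of injured tubule, urothelium and macrophage markers, 1 point per library, coloured by group and numbered by replicate. EV200 2 sits high beside libraries of low cluster level in the injured tubule and macrophage panels, and nearer the PBS libraries in the urothelium panel.

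As a description over the 12 libraries, which share their groups and depth, each of the 12 urothelium markers correlated with the log2 CPM of the summed cluster at a Pearson r of 0.71 to 0.91. Injured tubule markers had r from 0.31 to 0.90 and macrophage markers from 0.47 to 0.86. The 6 proximal tubule markers had r from -0.82 to -0.71. Of the 8 loop, distal and collecting duct markers 5 had r above 0, in a range from -0.36 to 0.74. The 5 intestinal markers with enough counts had r from -0.76 to 0.66. For neutrophils, 2 markers had enough counts, with r of -0.08 and -0.02. Of the squamous epithelium markers 3 had enough counts, with r = 0.86 for Sprr1a, 0.73 for Krt14 and -0.53 for Krt10. The median r over 18725 genes was 0.00104, and Gsdmd had r = 0.61 and Gsdme r = -0.65. These values follow the difference between groups as well as that within them.

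The 10 genes most like the summed cluster by Pearson r of log2 CPM over the 12 libraries ran from 0.92 to 0.95. First came Nfe2l3, a CNC-family transcription factor gene, at r = 0.95, with 0.0542 CPM in normal, 1.21 CPM in PBS, 0.845 CPM in EV200 and 0.227 CPM in EV400 on average. It was 0.345, 0.702 and 1.49 CPM in EV200 1, 2 and 3. The others were Cbr2 (a carbonyl reductase), Zfp286 (a zinc finger protein), Atp10b (a phospholipid-transporting ATPase), C2cd5 (a C2 domain protein), Rgmb (a BMP co-receptor), Mecom and Tfap2b (nephron transcription factors), Mboat1 (an acyltransferase) and Lamb3 (a chain of laminin-332). In each the PBS mean exceeded the EV400 mean, which exceeded the normal mean. The cluster has the same order, and the genes were picked for likeness to it in these libraries, so this is no separate result. Lamb3, for example, averaged 1.46 CPM in normal, 3.68 CPM in PBS, 3.52 CPM in EV200 and 1.90 CPM in EV400.

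The neighbours of the cluster did not share its range. To the right, Cyrib (in the table under its older symbol Fam49b), an actin regulator gene that lies 16775 bases from Gsdmc4, averaged 8.76 ± 0.356 CPM in normal, 13.8 ± 3.78 CPM in PBS, 10.6 ± 2.65 CPM in EV200 and 10.5 ± 1.03 CPM in EV400 (SD, n = 3). Asap1, an Arf GTPase-activating protein gene, averaged between 23.5 and 27.2 CPM in the 4 groups. EdgeR called neither gene in any of the 6 contrasts, with Fam49b at an unadjusted p of 0.00621 and an adjusted p of 0.0685 in PBS against normal. To the left, the nearest genes with a count were Gm5473 and Gm4942, with 28 and 2 counts in all.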

How the data were processed

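Libraries were made with a stranded poly(A) kit and sequenced as pairs of 101 bases, per the protocols in the labels. The tools named, per the submitters' processing notes, are HISAT2 2.1.0, StringTie 2.1.3b, Trimmomatic 0.38 and FastQC 0.11.7, with builds GRCm38 and mm10. Which of them counted reads, and with what strand setting, is not stated there. Whole-number read counts were deposited by the authors per gene and used for all tests, and the authors' TPM values were used to compare genes. The deposited FPKM values were not used.

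The main test was edgeR's (4.0.16, under R 4.3.3) quasi-likelihood F test, with all 12 libraries in 1 fit, TMM factors, the default filter (18730 genes) and 8 residual degrees of freedom. A call is a Benjamini-Hochberg adjusted p under 0.05 over all genes. The SE is the absolute log2 fold change divided by the square root of F. The summed cluster replaced its 4 rows in a second table. Alternatives were DESeq2 1.42.0, limma-voom (limma 3.58.1) with quality weights, DESeq2's scaling, other filters, a replicate block, the compared groups alone and leaving out each library. The test was checked on simulated counts. Coding sequences were aligned globally, and identity is over aligned bases.

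Members, lists and alternatives were chosen with earlier results of these data known. Named were the members, other gasdermins, caspases that cut gasdermins (1 is not reported here), up to 4 genes per list with the smallest p against PBS, the 10 genes most like the cluster, and 2 neighbours on each side.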

Additional observations from a re-analysis of the deposited data

How the results depend on the processing

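Among the alternative values, 207 kept the direction and, where a test was made, the side of the threshold, and 5 passed where the reported value did not. The 5 were the cluster in EV200 against normal by DESeq2 (log2 fold change 5.14) and without EV200 1 (5.67), the cluster in EV400 against PBS by DESeq2 (-3.70), Gsdmd in EV200 against PBS by limma-voom (-0.74) and Gsdme in EV400 against PBS by limma-voom (0.27). The remaining 7 turned direction, all uncalled: Gsdmd in EV200 against PBS without EV200 2 (0.10), Gsdmd in EV400 against EV200 by limma-voom (0.23) and without EV200 3 (0.0153), and Gsdme in EV400 against normal with DESeq2's scaling (0.00033), with no filter (0.00624), without normal 1 (0.0649) and without EV400 2 (0.02). The cause was not tested. Leaving out each library in turn, the cluster ranged from 4.54 to 5.84 in EV200 against normal, from -4.07 to -3.13 in EV400 against PBS, from -0.98 to -0.02 in EV200 against PBS, from -3.65 to -2.72 between the doses, from 1.45 to 2.74 in EV400 against normal and from 5.13 to 6.42 in PBS against normal. Gsdmd ranged from -0.60 to 0.10 in EV200 against PBS and from -0.67 to 0.0153 between the doses, and Gsdme from 0.29 to 0.41 in EV400 against PBS and from -0.025 to 0.0649 in EV400 against normal.

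Leaving out PBS 3 together with EV400 3 gave the cluster -4.00 in EV400 against PBS, and leaving out PBS 3 with EV200 3 gave -0.997 in EV200 against PBS, both chosen after seeing the data and neither called. The deviations of same-numbered libraries from their group means had r from -0.39 to 0.34. With 3 libraries per group, these values cannot settle whether the numbers pair the samples. With the replicate number as a block the cluster had -3.53 in EV400 against PBS (edgeR adjusted p 0.183, Benjamini-Hochberg), and the block changed no call. Leaving Gsdmc out of the sum gave -3.69 there. In normal libraries 0 to 16 counts of the cluster limit any fold change against normal.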
